A study of Mus musculus with 18 samples.

Results

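The mRNAs described here encode translation initiation and elongation factors of the mouse, other than the cap-binding set around eIF4E, eIF4G and eIF4A1. They were taken by name, as genes whose symbol begins with Eif1 to Eif6, Eef1 or Eef2, without Eif4e, Eif4e2, Eif4ebp1, Eif4ebp2, Eif4g1, Eif4g2, Eif4g3 and Eif4a1 and without pseudogenes, and they had to reach at least 1 CPM in at least 4 of 16 libraries, CPM being reads set to a common library total. Of 57 names that fit, 56 passed, out of 22021 listed genes and 14214 genes that reached the same level. Eif4e1b, which reached 1.17 CPM at most, was left out. Of the 56 members, 50 were at 1 CPM or more in all 16 libraries. Eif3j2, Eif4ebp3 and Eef1akmt1 reached it in fewer than 4 pulldowns, and Eif3j2 also in fewer than 4 inputs.

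The libraries came from dorsal root ganglia, the clusters of sensory neuron bodies beside the spinal cord, of male and female mice aged 8 to 12 weeks on a C57BL/6J background. All animals of all groups carried Cre recombinase under the Scn10a (Nav1.8) promoter and the Rosa26fsTRAP allele, so that cells with a history of Nav1.8 expression, mostly nociceptors, made the ribosomal protein L10a fused to EGFP. Ribosomes were recovered with antibodies to GFP (translating ribosome affinity purification, TRAP), and the input was a share of the same extract before the pulldown. The 4 groups were normal input and normal pulldown (biosamples 1 to 4) and paclitaxel input and paclitaxel pulldown (biosamples 5 to 8), where paclitaxel, a microtubule-stabilising cancer drug, was injected 4 times into the peritoneum at 4 mg/kg over 8 days, 16 mg/kg in all. The 2 subsamples of biosample 7 were averaged, which turned 18 libraries into 16. The labels do not say whether the normal mice received the vehicle, how many animals made up a biosample or which sex they were, so the p-values measure the spread between these samples.

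Translation begins when eIF2, loaded with GTP and the initiator tRNA, joins the small ribosomal subunit together with eIF1, eIF1A, eIF3 and eIF5, and the complex scans to a start codon. eIF2B reloads eIF2 with GTP, and stress kinases that phosphorylate eIF2 alpha block that step. During elongation eEF1A brings aminoacyl tRNAs to the ribosome, the eEF1B subunits reload eEF1A, and eEF2 moves the ribosome along the mRNA. In nociceptors, phosphorylation of eIF2 alpha and the control of initiation by mTORC1 are known to influence pain sensitivity.

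Several of these mRNAs are known in mammals as terminal oligopyrimidine (TOP) mRNAs, which begin with a C and a run of pyrimidines and whose translation follows mTORC1. The windows below, 30 bases each, 5′ to 3′ on the transcript's strand, hold a C followed by at least 7 further C or T within 30 bases of the RefSeq start site (capitals mark the run). Eef1a1, Eef1a2 and Eif3f are known TOP mRNAs, Eif2s3x and Eif2s3y are an X and Y pair, and Eif3m, Eif3k and Eif2b5 are members whose level differed between the fractions. Relative to the RefSeq start site (negative is upstream), the runs begin at -5 in Eef1a1, 17 in Eef1a2, -4 in Eif3f and -1 in Eif2s3x. They begin at 1 in Eif2s3y, -20 in Eif3m, 13 in Eif3k and -15 in Eif2b5, so not all lie where a TOP mRNA would begin.
Eef1a1: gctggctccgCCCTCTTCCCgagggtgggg
Eef1a2: gctcactggttCTCTCCCTCgctccggtgc
Eif3f: gttctaggCTCTCTCTCTTTCTCggcaaga
Eif2s3x: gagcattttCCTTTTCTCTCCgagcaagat
Eif2s3y: ccacagccaCTTCCTTCTTTCgtgagcaag
Eif3m: tacggcaccgCTCTCTTTTCCggtcggcgt
Eif3k: gctgaaagcgCCTTTCCCTTTgccttcctt
Eif2b5: cgcattCCTTCCTCTTTCTCTCCCTgcaac
In RefSeq on GRCm38.p6 the windows lie at chr9:78481710-78481739 (Eef1a1, minus strand), chr2:181156980-181157009 (Eef1a2, minus), chr7:108934403-108934432 (Eif3f, plus), chrX:94212632-94212661 (Eif2s3x, minus), chrY:1010587-1010616 (Eif2s3y, plus), chr2:105017028-105017057 (Eif3m, minus), chr7:28981856-28981885 (Eif3k, minus) and chr16:20498796-20498825 (Eif2b5, plus). On the transcript's strand only, such a run occurred in 14 of 55 promoters of members (25.5%) and in 5967 of 32851 promoters of all genes (18.2%). Counted by gene, with any of its promoters sufficing, it occurred in 12 of the 44 members with a promoter entry (27.3%). These were 3 of 7 known TOP members (42.9%) and 9 of 37 others (24.3%). No share by gene was counted over all genes, so the 18.2% per promoter is not a like background for these shares. A match describes these letters and not where transcription began in the ganglia. A marked run is not shown to be the TOP motif of its gene, in known TOP mRNAs too.

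The inputs held 4266007 to 14478012 reads and the pulldowns 5972327 to 32713515, and 1 CPM was reached by 13152 to 14043 genes in inputs and 8081 to 13228 in pulldowns. The floor of 3 reads stood at 0.0917 to 0.703 CPM, which covers counting error only. Among the marker genes, 4 of 7 nociceptor markers, Scn10a included, rose in the normal pulldowns and 5 of 7 in the paclitaxel pulldowns, while 2 of 7, Calca and Trpv1, fell in the normal pulldowns. Calca was also the 1 of 7 that rose between paclitaxel and normal pulldowns and that passed the test of a different change from input to pulldown. All 6 of 6 myelinating Schwann cell markers fell in both treatments. The summed Schwann cell markers stood at 5772 to 10317 CPM in normal inputs and 1894 to 3050.5 in normal pulldowns, and at 6503 to 8585 and 2033 to 2719.8 CPM with paclitaxel. No Schwann cell marker was at 0 in any library, and the part of glial RNA in the results on members was not tested. In bulk samples such as these, fewer cells of a type and less RNA per cell cannot be told apart.

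The first comparison asked how the factor mRNAs stood in the Nav1.8 pulldown relative to the input taken from the same extract. In normal biosamples 12 of 56 members rose (21.4%), 6 fell (10.7%) and 38 did not pass, against a background of 29.8% of all tested genes called, 5.09% higher and 24.7% lower (limma, Benjamini-Hochberg adjusted p under 0.05). In the paclitaxel biosamples 10 rose (17.9%), 2 fell (3.57%) and 44 did not pass, against 27.9% of all genes called, 4.92% higher and 23% lower. The mRNAs of the eEF1B subunits, of eIF2 beta, of eIF2B subunits and of part of eIF3 were among those that rose, and those of eEF1A1 and of eIF5 among those that fell. The median log2 change of the members was 0.04 in normal and 0.13 in paclitaxel biosamples, where the median of all genes was -0.66 and -0.56. Changes are differences of log2(CPM + 1), which understates the change of low genes, and reads from 3′ ends need no division by transcript length. Median-ratio scaling raised the median of all genes by 0.34 and 0.28 in the normal and paclitaxel comparisons, quantile normalization by 0.66 and 0.60, and edgeR with TMM scaling by 0.21 and 0.20. With edgeR 20 members rose and 0 fell in normal biosamples, and 17 rose and 0 fell with paclitaxel, so a fall named below is a fall on the CPM scale. At an unadjusted p under 0.05 edgeR gave 26 and 24 of the 56 members, against 28.9% and 29.4% of all genes. The share of all genes that edgeR called at the adjusted threshold is not given here. The members that edgeR called and limma did not were Eef1a2, Eif1a, Eif1ax, Eif3h, Eif3i, Eif3j1, Eif4b and Eif5b in normal biosamples and Eef1a2, Eef2kmt, Eif2b4, Eif2b5, Eif3b, Eif3f and Eif5a with paclitaxel, so a member said below not to pass did not pass by limma on the CPM scale. Among the 6 that fell, Eif4ebp3 met the level filter through its inputs (1 CPM or more in 8 inputs and 3 pulldowns), a route that favours a lower pulldown, and 5 fell without it. Without the biosample block 5 members passed with paclitaxel, and the calls of Eef1b2, Eif1, Eif2s2, Eif3a, Eif3h, Eif3i and Eif4e3 were lost, as were the normal calls of Eef1a1, Eef1e1, Eef2, Eif4e3, Eif4h and Eif5. The share of higher calls among all called genes was 17.1% on the CPM scale in normal biosamples and 45.2%, 48.5% and 67.2% under these scalings, and 17.6% with paclitaxel against 39.4%, 47.6% and 59.9%.

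**Figure D1:**
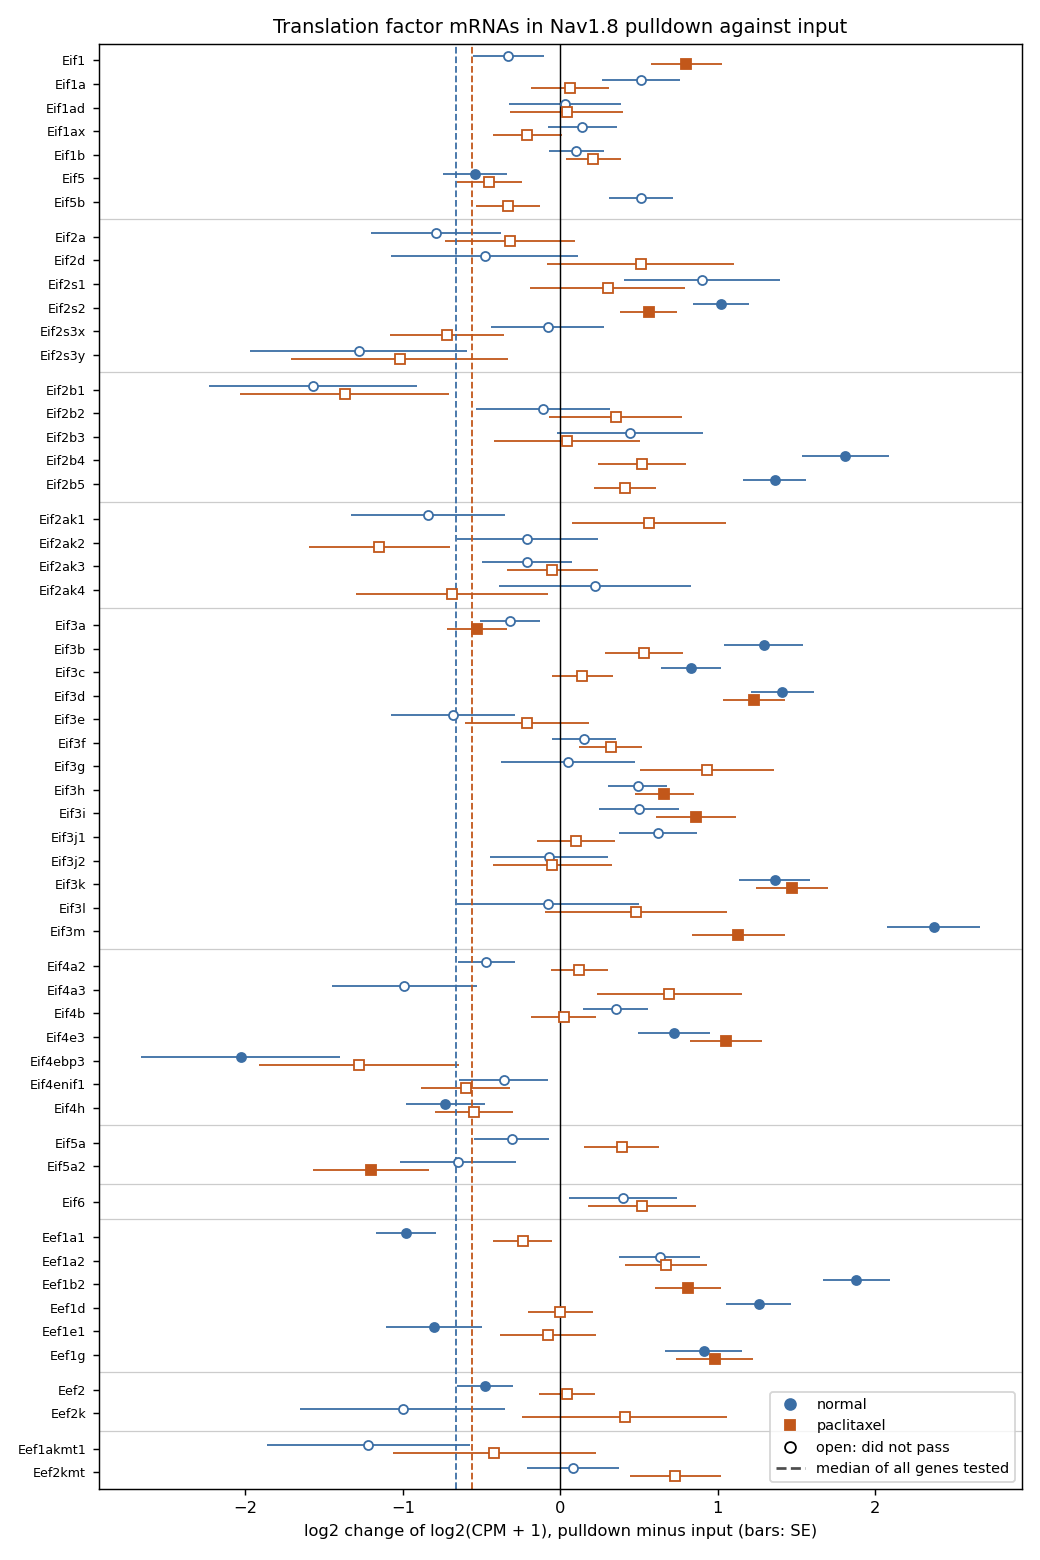
Log2 change of each of the 56 members between pulldown and input (horizontal axis, bars: SE), grouped by role from initiation (top) to elongation (bottom), in normal (blue circles) and paclitaxel (orange squares) biosamples, filled where the member passed. The dashed lines mark the medians of all tested genes, -0.66 and -0.56, and the members' medians lie at 0.04 and 0.13.

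Of the 6 eEF1 members 3 rose (50%) and 2 fell (33.3%) in the normal pulldowns, against 5.09% and 24.7% of all genes. With paclitaxel 2 rose (33.3%, against 4.92%). Eef1b2 (ENSMUSG00000025967.16, chr1:63176825-63180486, plus strand) encodes the eEF1B subunit that exchanges GDP for GTP on eEF1A. In biosamples 1 to 4 it stood at 196, 398, 261 and 251 CPM in input and at 1362, 1161, 565 and 1053 CPM in pulldown, and in biosamples 5 to 8 at 282, 215, 391 and 461 and at 484, 441, 723 and 680.5 CPM. Every pulldown exceeded its own input, and in the normal group the fractions did not overlap. Eef1b2 rose in the normal (log2 change 1.88, SE 0.211, adjusted p = 1.67e-06) and in the paclitaxel pulldowns (log2 change 0.81, SE 0.211, adjusted p = 0.00714). Eef1d (chr15:75894205-75909556, minus strand), the second exchange subunit, had 171, 136, 145 and 177 CPM in normal inputs and 515, 398, 227 and 427 CPM in normal pulldowns. In the paclitaxel biosamples Eef1d had 140.4, 122, 115 and 143 CPM in input and 122, 115, 144 and 141 CPM in pulldown. The normal pulldowns lay above all other libraries, and the paclitaxel fractions lay at the same level. Eef1d rose in normal (log2 change 1.26, SE 0.207, adjusted p = 0.000127) and did not pass in paclitaxel biosamples (log2 change 0.00, adjusted p = 0.992). The last 500 bases of Eef1d overlap Naprt on the same strand over 277 bases, and Naprt was at 0 to 3.67 CPM in all libraries. Eef1g, the subunit that holds the complex together, stood at 48.1, 102, 73.4 and 67.5 CPM in normal inputs and 110.3, 107, 167 and 157 CPM in their pulldowns, then at 75, 64, 80.8 and 65.8 and 167, 163, 131 and 112 CPM with paclitaxel. It rose by a like amount in both treatments (log2 changes 0.91 and 0.98, SE 0.245 each, adjusted p = 0.00864 and 0.00563), with no overlap of fractions in either. Other genes share 9.98% of the 50-base stretches in the last 500 bases of Eef1g.

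Eef1a1 and Eef1a2 encode the 2 forms of eEF1A, of which eEF1A2 is the form of adult neurons and muscle. Eef1a1 (ENSMUSG00000037742.14, chr9:78478449-78489151, minus strand) had 411, 1330.0, 836 and 402 CPM in normal inputs and 177, 462, 684 and 213 CPM in normal pulldowns. With paclitaxel it had 1249, 1129, 1506 and 1472 CPM in input and 1196, 803, 1284 and 1289 CPM in pulldown. It was lower in the pulldown of 4 of 4 biosamples in each treatment, and fell in the normal (log2 change -0.98, SE 0.188, adjusted p = 0.000564) but did not pass in the paclitaxel pulldowns (log2 change -0.24, adjusted p = 0.341). Pseudogene copies share 35% of the 50-base stretches in its last 500 bases, so its counts carry an uncertainty that the sources used here do not settle. Eef1a2 (chr2:181147653-181157014, minus strand) stood at 51.7, 100.2, 73.3 and 53.2 CPM in normal inputs, 146, 74.1, 118 and 92.1 CPM in normal pulldowns, 75.5, 79.4, 99 and 118 CPM in paclitaxel inputs and 125, 115, 179 and 178 CPM in paclitaxel pulldowns. The pulldown was the higher fraction in 3 of 4 normal and 4 of 4 paclitaxel biosamples, biosample 2 being the exception. It did not pass in either treatment (log2 changes 0.63 and 0.67, adjusted p = 0.0686 and 0.0551), though it passed in both under median-ratio scaling (1.06 and 0.99), quantile normalization (0.84 and 0.78) and edgeR (1.15 and 1.06), in normal biosamples without biosample 2 (0.98, adjusted p = 0.00768), and in paclitaxel biosamples with biosample 1 or 2 left out of the shared fit (0.67, adjusted p = 0.0301 and 0.0232). Eef1a1 exceeded Eef1a2 by 7.56 to 13.3 times in normal inputs and by 1.21 to 6.23 times in normal pulldowns, and by 12.5 to 16.5 and 7.01 to 9.56 times with paclitaxel. By Pearson correlation of log2 values over the 16 libraries, the genes most like Eef1a2 were Uqcr11 (0.933), Creb3 (0.917), Dctn2 (0.912), Psmd6 (0.911) and Cst6 (0.91), a description over libraries of 2 fractions and 2 treatments.

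Eef1e1, a small protein of the multi-tRNA synthetase complex named for its likeness to eEF1, had 134, 169, 76.5 and 64.9 CPM in normal inputs and 137, 86.9, 56.1 and 17.2 CPM in pulldowns. With paclitaxel it had 62.9, 80.7, 39.7 and 51.1 CPM in input and 35.6, 82.9, 63.5 and 43.6 CPM in pulldown. It fell in normal biosamples by 0.80 on the log2 scale (adjusted p = 0.0493, lower in 3 of 4), a call lost without biosample 2, 3, 4, 6 or 8 (adjusted p = 0.0531 to 0.285). Eef2, which encodes the translocase and was the most abundant member, had 1600.1, 2199, 1901 and 1718 CPM in normal inputs and 1388, 1366, 1737 and 911 CPM in pulldowns, against 2531, 2599, 2152 and 2340.1 CPM and 2648, 2419, 2141 and 2719.7 CPM with paclitaxel. It was lower in each normal pulldown and on both sides of its input with paclitaxel. Its fall in normal biosamples (log2 change -0.48, SE 0.177, adjusted p = 0.0424) was lost without biosample 2, 4, 5, 6, 7 or 8 (adjusted p = 0.0555 to 0.167), and with edgeR the change was 0.04 (adjusted p = 0.93). Eef2k, the kinase that switches eEF2 off, had 8.42, 18.4, 15 and 12.4 CPM in normal inputs, 24.1, 0.63, 12.3 and 3.52 CPM in normal pulldowns, 12.7, 15.8, 13.5 and 12.7 CPM in paclitaxel inputs and 21.4, 19, 23.5 and 11.8 CPM in paclitaxel pulldowns. The normal pulldowns spread widest, from 0.63 to 24.1 CPM, and the fractions did not differ past the threshold (adjusted p = 0.242 and 0.663). The methyltransferases Eef2kmt and Eef1akmt1 did not pass in either treatment. Eef2kmt was higher in the pulldown of 4 of 4 paclitaxel biosamples without overlap, at 40, 33.9, 57.9 and 55.4 CPM in input and 87.3, 67.7, 76.6 and 75 CPM in pulldown (log2 change 0.73, adjusted p = 0.064). It passed there with edgeR (1.13, adjusted p = 0.0222), median-ratio scaling (1.04, 0.0149), quantile normalization (0.95, 0.0189), no filter (0.73, 0.049) and without biosample 1 (0.73, 0.046).

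**Figure D2:**
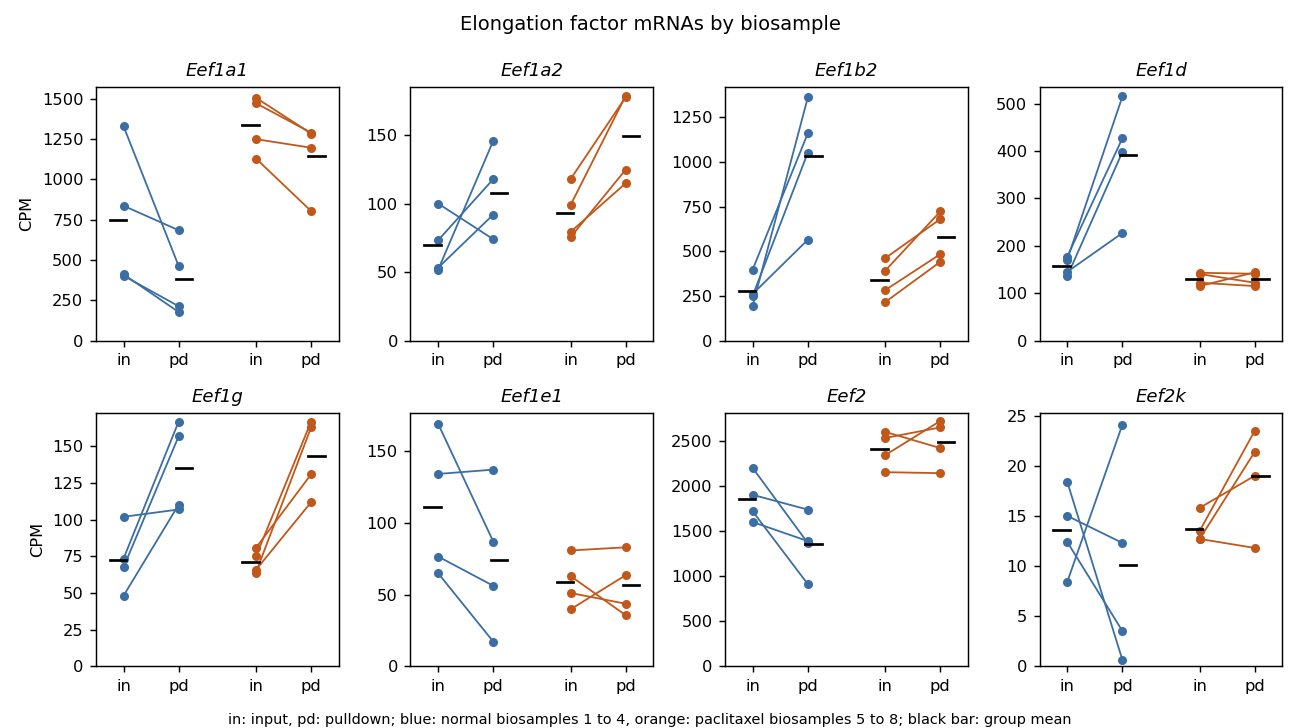
CPM of 8 elongation factor mRNAs (vertical axes, linear from 0) in input and pulldown, with 1 line per biosample and black bars for group means. Eef1b2 and Eef1g go up in every biosample, Eef1d goes up in the 4 normal biosamples and stays between 115 and 144 CPM with paclitaxel, and Eef1a1 goes down in all 8.

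eIF3 is the large scaffold that binds the small ribosomal subunit and recruits mRNA to it. Of its 14 members 5 rose (35.7%) and 0 fell in normal biosamples (median log2 change 0.50), against 5.09% and 24.7% of all genes. With paclitaxel 5 rose (35.7%) and 1 fell (7.14%), against 4.92% and 23% (median 0.50). Eif3d, Eif3k and Eif3m rose in both treatments, Eif3b and Eif3c passed in normal, and Eif3h and Eif3i passed in paclitaxel biosamples, by limma on the CPM scale. With edgeR Eif3h (1.01, adjusted p = 0.00196) and Eif3i (1.02, adjusted p = 0.019) passed in normal biosamples too, and Eif3b with paclitaxel (0.92, adjusted p = 0.0299). No eIF3 member passed the limma test of a difference between the treatments, and Eif3b, Eif3c and Eif3m had an unadjusted p under 0.05 there. Eif3d, whose human counterpart can bind the mRNA cap, had 111, 208, 96.3 and 112 CPM in normal inputs and 374, 422, 307 and 263 CPM in normal pulldowns. With paclitaxel Eif3d had 110.2, 105, 120.0 and 101 CPM in input and 274, 257, 310.4 and 197 CPM in pulldown. In both treatments all 4 pulldowns lay above all 4 inputs (log2 change 1.41, SE 0.199, adjusted p = 2.18e-05 in normal, log2 change 1.23, SE 0.199, adjusted p = 0.00018 in paclitaxel). Eif3k (chr7:28971372-28981864, minus strand), a small outer subunit, had 58, 134, 111 and 71.7 CPM in normal inputs and 237, 305, 294 and 128 CPM in normal pulldowns. With paclitaxel it stood at 98.1, 86.5, 124 and 122 CPM in input and 292, 344, 338 and 227 CPM in pulldown. Every pulldown lay above its input, and pulldown 4 alone reached into the range of the inputs (log2 change 1.36, SE 0.226, adjusted p = 0.000149 in normal, log2 change 1.47, SE 0.226, adjusted p = 9.8e-05 in paclitaxel).

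Eif3m (ENSMUSG00000027170.12, chr2:104999656-105017080, minus strand), a subunit with a PCI domain, showed the largest rise of the members in normal biosamples. It had 37.4, 56.5, 37.7 and 42.4 CPM in normal inputs and 367, 281, 159 and 161 CPM in normal pulldowns. With paclitaxel it had 29.7, 23.9, 37.6 and 47.7 CPM in input and 72.4, 31.2, 168 and 80.7 CPM in pulldown. The normal fractions were far apart, and with paclitaxel pulldown 6 lay inside the range of the inputs. Eif3m rose in normal (log2 change 2.37, SE 0.297, adjusted p = 5.85e-06) and in paclitaxel biosamples (log2 change 1.13, SE 0.297, adjusted p = 0.00772), the latter lost without biosample 7 (adjusted p = 0.0876). A pseudogene, Gm7658, shares 43% of the 50-base stretches in its last 500 bases, and Ccdc73 overlaps 82 of those bases on the opposite strand at 0 to 13.4 CPM. Eif3b, a scaffold subunit with an RNA recognition motif, rose in normal biosamples by 1.29 (SE 0.249, adjusted p = 0.000611), with 78.1, 69.3, 76.7 and 93.8 CPM in input and 231, 217, 184 and 156 CPM in pulldown. Eif3c, a core subunit, rose there by 0.83 (SE 0.191, adjusted p = 0.00269), with 221, 226, 229.7 and 289 CPM in input and 461, 344, 381 and 554 CPM in pulldown. Neither pair of fractions overlapped. With paclitaxel Eif3b and Eif3c changed by 0.53 and 0.14 and did not pass (adjusted p = 0.116 and 0.593).

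Eif3h, which together with Eif3f carries an MPN domain, had 220.3, 279, 267 and 298 CPM in normal inputs and 327, 307, 312 and 609 CPM in pulldowns, against 259, 237, 387 and 410.5 CPM and 329, 446, 647 and 637 CPM with paclitaxel. It was higher in 8 of 8 pulldowns and rose with paclitaxel (log2 change 0.66, SE 0.188, adjusted p = 0.0127), a call lost without biosample 6 or 7 (adjusted p = 0.058 to 0.0852), while in normal biosamples the adjusted p was 0.0514, and 0.0328 without biosample 2. Pseudogenes share 20.8% of its last 500 bases in the same measure. Eif3i, a WD-repeat subunit, had 48.4, 109, 76.4 and 35.4 CPM and 121, 112, 111 and 38.9 CPM in normal inputs and pulldowns, and 66.4, 59, 72.1 and 79.7 CPM and 137, 124, 134 and 111 CPM with paclitaxel. It too was higher in 8 of 8 pulldowns, rose with paclitaxel (log2 change 0.86, SE 0.255, adjusted p = 0.0153) and lost that call without biosample 5, 6 or 7 (adjusted p = 0.0529 to 0.0758). Eif3a, the largest subunit, had 496, 315, 409.7 and 425 CPM in normal inputs, 257, 269.7, 379 and 430.0 CPM in normal pulldowns, 458, 487, 340.3 and 346 CPM in paclitaxel inputs and 291, 304, 296 and 227 CPM in paclitaxel pulldowns. It was the only eIF3 member that fell (log2 change -0.53, SE 0.19, adjusted p = 0.0391 with paclitaxel, without overlap), and the call was lost without biosample 5, 6, 7 or 8 (adjusted p = 0.0506 to 0.15) and with edgeR. Eif3e had 41.3, 81.9, 41.3 and 24.1 and 33.7, 10.3, 41.5 and 33.1 CPM in normal inputs and pulldowns and 72.1, 58.1, 60.6 and 54.8 and 57.9, 55, 55.8 and 43.1 CPM with paclitaxel, and did not pass. Eif3f, at 151, 280.1, 220.4 and 129.6 and 256, 205, 252 and 139 CPM in normal and 274, 269.9, 333 and 349.9 and 382, 269, 473 and 429 CPM in paclitaxel biosamples, did not pass either. Eif3g, Eif3l, Eif3j1 and Eif3j2 did not pass in either treatment, and Eif3j2, which shares 88.9% of its 50-base stretches with Eif3j1, never exceeded 2.34 CPM. With paclitaxel, all Eif3g pulldowns lay above all inputs (0.93, adjusted p = 0.101). It passed there with median-ratio scaling (1.24, adjusted p = 0.0358) and quantile normalization (1.22, adjusted p = 0.0409), as did Eif3j2 with the latter (1.19, adjusted p = 0.0272). Eif3j1 passed in normal biosamples with both (1.06, adjusted p = 0.00371, and 0.82, adjusted p = 0.0187). Eif3e shares 30.4% of its 50-base stretches with pseudogenes.

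**Figure D3:**
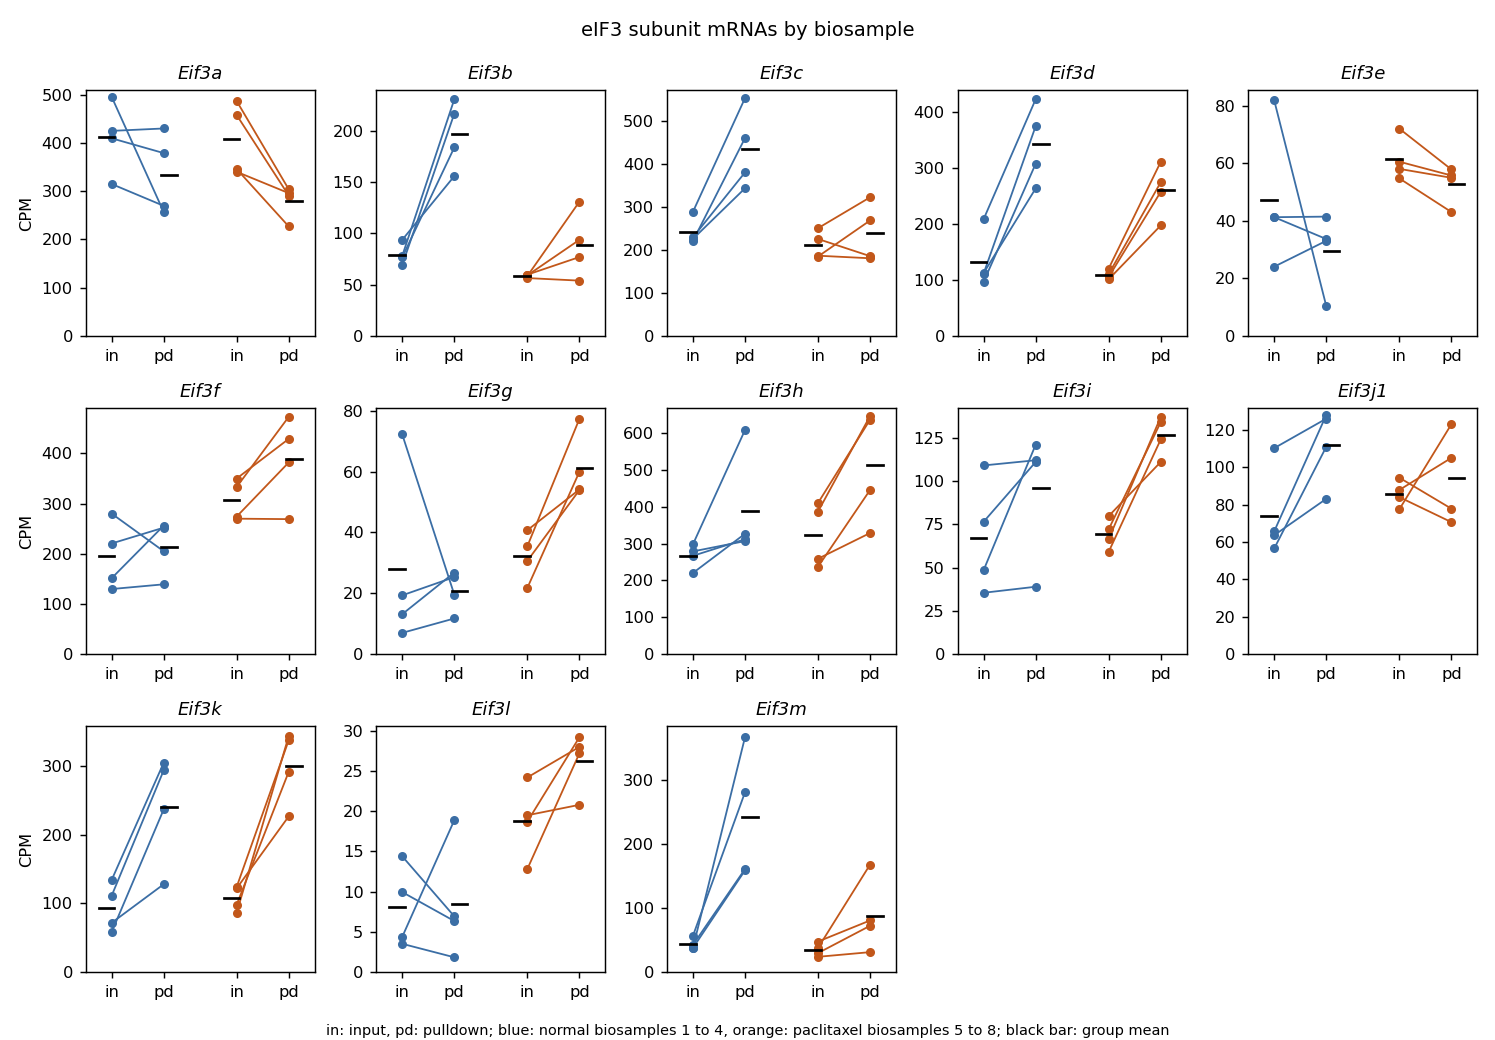
CPM of 13 eIF3 subunit mRNAs (linear axes from 0) in input and pulldown of normal (blue) and paclitaxel (orange) biosamples, 1 line per biosample, black bars for means. Eif3d, Eif3k and Eif3m rise in both treatments, and Eif3a falls in the 4 paclitaxel biosamples.

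eIF2 is a trimer of alpha (Eif2s1), beta (Eif2s2) and gamma (Eif2s3x and Eif2s3y) subunits. Eif2s2 (chr2:154871410-154892935, minus strand) had 277, 471, 421 and 352 CPM in normal inputs and 765, 698, 886 and 686 CPM in normal pulldowns. With paclitaxel it had 424, 415, 454 and 512 CPM in input and 656, 729.7, 653 and 629 CPM in pulldown. In both treatments every pulldown lay above every input, and Eif2s2 rose in normal (log2 change 1.02, SE 0.18, adjusted p = 0.000266) and in paclitaxel biosamples (log2 change 0.56, SE 0.18, adjusted p = 0.0225), the latter lost without biosample 5, 6 or 7 (adjusted p = 0.0704 to 0.133). Eif2s1, the subunit that stress kinases phosphorylate, had 12.3, 12.5, 14.2 and 8.2 CPM in normal inputs and 29.2, 11.1, 28.3 and 27.6 CPM in normal pulldowns, and 16.6, 11.6, 19.4 and 16.2 CPM and 31.7, 19.2, 23.8 and 9.83 CPM with paclitaxel. Pulldown 2 lay among the inputs while the other 3 normal pulldowns exceeded every input, and the fractions did not differ past the threshold (log2 changes 0.90 and 0.30, adjusted p = 0.162 and 0.676).

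The gamma subunit comes from an X-linked gene in both sexes and from a Y-linked copy in male mice. Eif2s3x had 42, 67.2, 29.9 and 16.6 CPM in normal inputs and 63.6, 55.9, 44.6 and 6.7 CPM in normal pulldowns. With paclitaxel Eif2s3x had 63.3, 82.2, 28.6 and 36 CPM and 55.8, 39.5, 14.9 and 20.6 CPM. Eif2s3y had 14.8, 7.53, 8.08 and 28.1 CPM in normal inputs, 6.14, 0.26, 4.03 and 21.6 CPM in normal pulldowns, 9.71, 4.45, 11 and 8.11 CPM in paclitaxel inputs and 2.88, 0, 25.2 and 2.74 CPM in paclitaxel pulldowns. Biosample 4 had the lowest Eif2s3x and the highest Eif2s3y among inputs, and was the only biosample whose input held less of the X copy than of the Y copy. In pulldown the Y copy was the higher in biosamples 4 and 7. Another Y-linked gene, Ddx3y, was also highest in input 4 at 138 CPM and lowest in input 2 at 30.6 CPM. Neither gamma subunit gene passed between fractions (adjusted p from 0.132 to 0.884). Eif2a and Eif2d, which encode factors that can deliver initiator tRNA without eIF2, did not pass in either treatment.

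eIF2B is a decamer whose catalytic part is formed by the gamma and epsilon subunits, Eif2b3 and Eif2b5. Eif2b5 (ENSMUSG00000003235.12, chr16:20498817-20509323, plus strand) had 147, 149, 187 and 249 CPM in normal inputs and 398, 438, 456 and 559 CPM in normal pulldowns. With paclitaxel it had 129.9, 149.7, 127 and 140.4 CPM in input and 244, 135, 179 and 185 CPM in pulldown. The normal fractions were separate, and the paclitaxel fractions overlapped through pulldown 6. Eif2b5 rose in normal (log2 change 1.36, SE 0.199, adjusted p = 3.7e-05) and did not pass in paclitaxel biosamples (log2 change 0.41, adjusted p = 0.124). Eif2b4, the delta subunit of the regulatory part, had 36.2, 43.2, 53.2 and 45.5 CPM in normal inputs and 227, 206, 99.5 and 129.8 CPM in normal pulldowns, and with paclitaxel 40.7, 45.4, 60 and 48.8 CPM and 60.2, 70.5, 77.9 and 70.2 CPM. Its fractions did not overlap in either treatment, and it rose in normal (log2 change 1.81, SE 0.279, adjusted p = 6.55e-05) but did not pass in paclitaxel biosamples (log2 change 0.52, adjusted p = 0.166). With paclitaxel both passed with edgeR (Eif2b5 0.79, adjusted p = 0.0206, and Eif2b4 0.91, adjusted p = 0.0468) and with median-ratio scaling (0.73, adjusted p = 0.0153, and 0.83, adjusted p = 0.0417). Eif2b1, Eif2b2 and Eif2b3 did not pass in either treatment, and Eif2b1 was lower in 8 of 8 pulldowns (log2 changes -1.57 and -1.37, adjusted p = 0.0737 and 0.124).

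**Figure D4:**
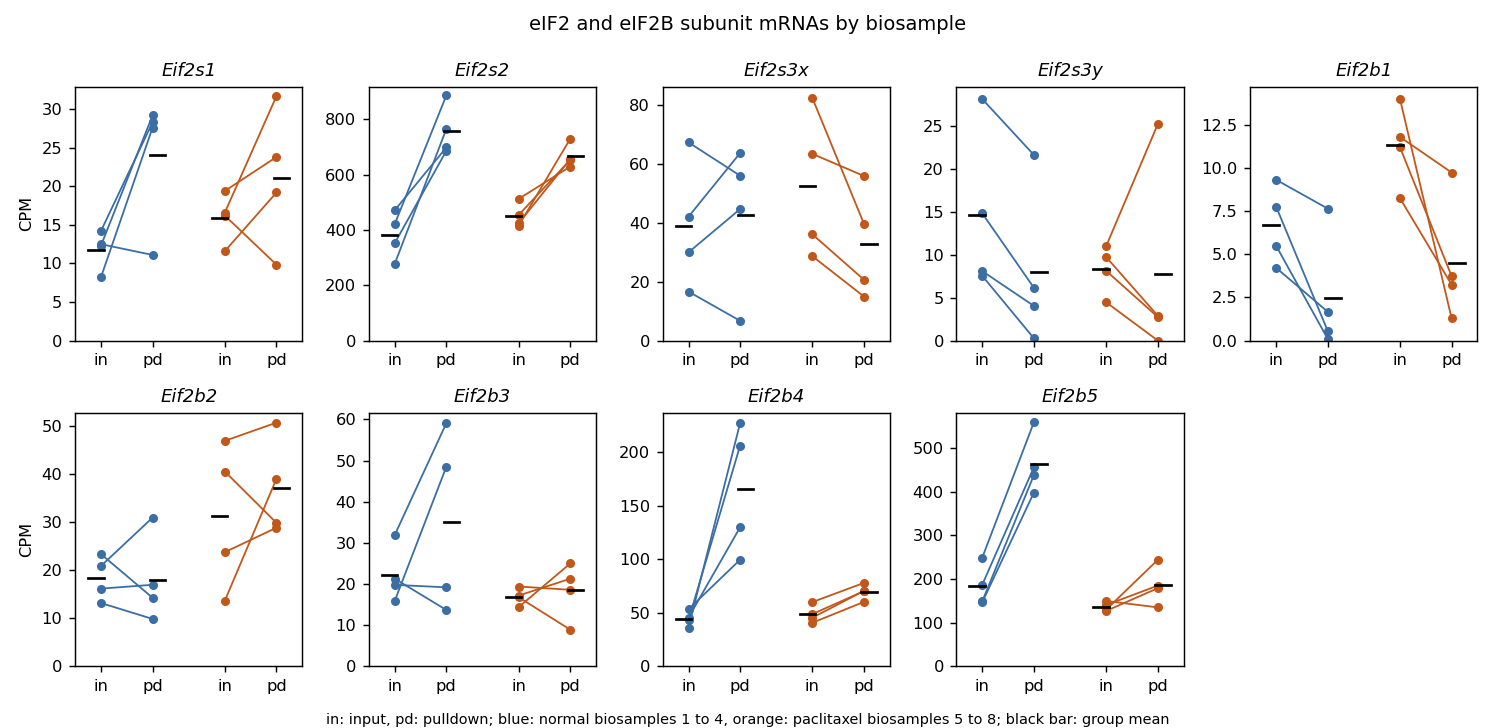
CPM of the eIF2 and eIF2B subunit mRNAs (linear axes from 0) in input and pulldown, 1 line per biosample, black bars for means. Eif2s2 and Eif2b4 are higher in the pulldown of all 8 biosamples and Eif2b5 in 7 of 8, and the X copy is lowest in biosample 4, where the Y copy is highest among inputs.

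None of the 4 eIF2 alpha kinases passed between the fractions in either treatment by limma or edgeR, and Eif2ak2 alone had an unadjusted limma p under 0.05, with paclitaxel. Eif2ak1, the heme-regulated kinase HRI, had 20.4, 32.1, 31.4 and 19 CPM in normal inputs, 1.15, 17.3, 43.6 and 24.6 CPM in normal pulldowns, 37.3, 36, 42.1 and 40.1 CPM in paclitaxel inputs and 24.2, 58.2, 111 and 69.3 CPM in paclitaxel pulldowns. Eif2ak2, the double-stranded RNA sensor PKR, had 28.2, 36.4, 18.6 and 24.6 and 19.2, 31.2, 14.4 and 30.1 CPM in normal inputs and pulldowns and 37.9, 35.5, 28.2 and 21.3 and 5.63, 16.2, 15.4 and 19.7 CPM with paclitaxel. All 4 paclitaxel pulldowns of Eif2ak2 lay below all 4 inputs (log2 change -1.15, adjusted p = 0.0579), and it passed without biosample 1 (-1.15, adjusted p = 0.0498) or 8 (-1.49, adjusted p = 0.0385). Eif2ak3, the endoplasmic reticulum kinase PERK, was the most abundant kinase in normal inputs with 108, 52.6, 51.2 and 62.6 CPM. Its normal pulldowns had 50.9, 48.7, 62.2 and 66 CPM, and the paclitaxel libraries 48, 55.8, 62.1 and 56.6 CPM in input and 37.5, 55.4, 81.5 and 48.9 CPM in pulldown. Eif2ak4, the amino acid sensor GCN2, was the least abundant kinase in the inputs, with 11.7, 4.71, 7.53 and 8.44 and 9.93, 8.13, 11.3 and 7.87 CPM in normal and 8.17, 10, 13.9 and 8.41 and 2.1, 5.75, 15.6 and 5.01 CPM in paclitaxel inputs and pulldowns.

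Of the 7 members grouped here with the factors of start codon selection, 1 fell in normal biosamples (14.3%, below the 24.7% of all genes). In paclitaxel biosamples 1 rose (14.3%, against 4.92%). Eif1 (chr11:100319885-100322096, plus strand), the gatekeeper of start codon choice, had 243, 646, 393 and 159 CPM in normal inputs and 340.4, 243, 347 and 137 CPM in normal pulldowns. With paclitaxel it had 386, 354, 395 and 349.9 CPM in input and 837, 715, 632 and 459.8 CPM in pulldown. Input 2 was far above the other normal inputs, and all paclitaxel pulldowns lay above all paclitaxel inputs. Eif1 rose with paclitaxel (log2 change 0.80, SE 0.226, adjusted p = 0.012), a call lost without biosample 5 or 6 (adjusted p = 0.0677 to 0.0787), and did not pass in normal biosamples (log2 change -0.33). Its paralog Eif1b stood higher than Eif1 in all 16 libraries, at 523, 755, 782 and 618 and 689, 726, 1000.4 and 499 CPM in normal and 898, 916, 808 and 882 and 976, 928, 983 and 1169 CPM in paclitaxel inputs and pulldowns, and did not pass. Eif5, which makes eIF2 hydrolyse its GTP, had 246, 276, 285 and 252 and 177, 115, 215 and 245 CPM in normal inputs and pulldowns and 316, 282, 309.8 and 273 and 213, 188, 212 and 253 CPM with paclitaxel. Its pulldowns lay below its inputs in both treatments without overlap, and it fell in normal biosamples (log2 change -0.54, SE 0.204, adjusted p = 0.0475), a call lost without biosample 1, 2, 3, 5, 6, 7 or 8 (adjusted p = 0.0547 to 0.268). Eif5b, which joins the large subunit, had 155, 118, 154 and 249 and 261, 158, 174 and 399 CPM in normal and 186, 186, 193 and 168 and 106, 192, 154 and 144 CPM in paclitaxel inputs and pulldowns, with no call by limma on the CPM scale (adjusted p = 0.0614 and 0.23). It passed in normal biosamples with edgeR (1.03, adjusted p = 0.00277), median-ratio scaling (0.94, adjusted p = 0.00216) and quantile normalization (0.60, adjusted p = 0.0382). Eif1a, Eif1ax and Eif1ad did not pass.

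Of the 7 members around eIF4, Eif4e3, an alternative cap-binding protein, rose in both treatments. It had 153, 187, 128 and 87.9 CPM in normal inputs and 251, 357, 187 and 142 CPM in pulldowns, and 74.3, 95.6, 56.7 and 46.2 CPM and 191, 310.1, 94.6 and 63 CPM with paclitaxel. The pulldown was higher in 8 of 8 biosamples, although the groups overlapped (log2 change 0.72, SE 0.228, adjusted p = 0.0213 in normal, log2 change 1.05, SE 0.228, adjusted p = 0.00217 in paclitaxel), and the normal call was lost without biosample 1 or 2 (adjusted p = 0.0579 to 0.0703). Eif4h, which stimulates the eIF4A helicase, had 194, 98.6, 136 and 121 and 88.7, 55, 64.1 and 130.4 CPM in normal and 105, 86.8, 148 and 152 and 50.9, 58.8, 147 and 98.9 CPM in paclitaxel inputs and pulldowns. It fell in normal biosamples (log2 change -0.73, SE 0.249, adjusted p = 0.0309), lower in 3 of 4, and lost the call without biosample 1, 2 or 3 (adjusted p = 0.0706 to 0.136). Eif4ebp3, an eIF4E-binding repressor, had 5.01, 10.1, 4.39 and 3.03 CPM in normal inputs and 0, 0.19, 3.41 and 0 CPM in normal pulldowns, and 4.8, 4.86, 4.29 and 6.21 and 0, 0, 6.39 and 4.05 CPM with paclitaxel. As the level filter favoured a lower pulldown here, its normal log2 change of -2.03 (adjusted p = 0.0198) is given as a description. The call was lost without biosample 1, 2 or 4 (adjusted p = 0.0542 to 0.104) and with edgeR, and all of its 50-base stretches are shared with an overlapping gene. Eif4a2, the helicase paralog abundant in brain, had 503, 863, 562 and 316 and 379, 543, 433 and 232 CPM in normal and 417, 417, 409 and 412 and 586, 412, 539 and 317 CPM in paclitaxel inputs and pulldowns (adjusted p = 0.0513 and 0.634). It exceeded Eif4a1 by 3.91 to 4.35 times in normal inputs and by 1.81 to 3.74 times in normal pulldowns, and by 2.24 to 3.33 and 2.28 to 2.64 times with paclitaxel. Eif4a3, the helicase of the exon junction complex, had 9.11, 34.5, 17.7 and 16.4 and 10.3, 11.3, 3.15 and 11.9 CPM in normal and 25, 15.7, 35.9 and 42.1 and 26.3, 29.6, 75.4 and 70.9 CPM in paclitaxel inputs and pulldowns. It did not pass between fractions, though in normal biosamples it passed without biosample 1 (-1.38, adjusted p = 0.0488) and with the trends in length and GC content removed (-1.27, adjusted p = 0.0403). Other genes share 29.3% of the 50-base stretches in the last 500 bases of Eif4a3. Eif4b, a helicase cofactor, had 166, 135, 157 and 128 and 194, 172, 199 and 179 CPM in normal and 144, 151, 92.9 and 84.9 and 154, 202, 93.2 and 62.8 CPM in paclitaxel inputs and pulldowns, and did not pass, although the normal fractions did not overlap. Eif4enif1 did not pass.

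Eif5a and Eif5a2 encode the hypusine-bearing factor that helps ribosomes past difficult peptide bonds. Eif5a (chr11:69916714-69921958, minus strand) had 46.2, 75.1, 80 and 43.6 CPM in normal inputs and 42.2, 63.7, 70.4 and 26.8 CPM in normal pulldowns, and 92.2, 90.9, 123 and 129 CPM and 120.5, 97, 177 and 193 CPM with paclitaxel, and did not pass between fractions. Eif5a2 had 72.5, 55.6, 62.3 and 45.9 CPM in normal inputs, 38.4, 17.2, 56.4 and 47.9 CPM in normal pulldowns, 58.5, 55.8, 44.4 and 34.1 CPM in paclitaxel inputs and 16.6, 12.6, 30.5 and 24.9 CPM in paclitaxel pulldowns. Every paclitaxel pulldown of Eif5a2 lay below every input, and it fell there (log2 change -1.20, SE 0.369, adjusted p = 0.0193), a call lost without biosample 5 or 6 (adjusted p = 0.106 to 0.131) and with edgeR. The ratio of Eif5a to Eif5a2 was 0.559 to 3.7 in normal pulldowns and 5.79 to 7.77 in paclitaxel pulldowns. Eif6, which keeps the ribosomal subunits apart, had 21.1, 38.3, 31.4 and 27.9 and 35.1, 34.4, 64.2 and 28.3 CPM in normal and 26.7, 27.2, 40.7 and 47.6 and 57.5, 22.4, 55.9 and 84.2 CPM in paclitaxel inputs and pulldowns, and did not pass.

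The test of whether the change from input to pulldown differed between the treatments called 0 of 56 members, where limma called 27 of all genes (0.19%), 0.162% higher and 0.0281% lower. At an unadjusted p under 0.05 it gave 14 members, and edgeR called 0 members with 11 at an unadjusted p under 0.05, which is met by 11.3% of all genes in limma and 8.46% in edgeR. The lowest adjusted p was that of Eef1d, whose change was lower by 1.26 (SE 0.292) with paclitaxel (adjusted p = 0.0695). Without biosample 3 Eef1d passed (-1.46, adjusted p = 0.0277), and so did Eef1b2 (-1.32, adjusted p = 0.0389). A member that passed in 1 treatment and not in the other is therefore not shown to differ between them.

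The second comparison set the paclitaxel pulldowns against the normal pulldowns, and it uses the same pulldowns as the tests above. Of the 56 members 3 rose (Eef1a1, Eif1 and Eif5a) and 2 fell (Eef1d and Eif2b5), which is 8.93% of members against 1.82% of all genes, 1.33% higher and 0.492% lower. The median of the members was 0.06 and that of all genes 0.17. The pulldowns did not overlap for 10 members that were higher with paclitaxel (17.9%, against 6.73% of all genes) and for 6 that were lower (10.7%, against 3.57%). These were Eef1a1, Eef2, Eef2kmt, Eif1, Eif3e, Eif3f, Eif3g, Eif3l, Eif4a3 and Eif5a, and Eef1d, Eif1a, Eif2b4, Eif2b5, Eif3b and Eif3c. Eef1a1 was at 177 to 684 CPM in normal and 803 to 1289 CPM in paclitaxel pulldowns (log2 change 1.76, SE 0.381, adjusted p = 0.0338). The call was lost without biosample 1, 2, 4, 5, 7 or 8 (adjusted p = 0.0974 to 0.172). Eif1 was at 137 to 347 CPM in normal and 459.8 to 837 CPM in paclitaxel pulldowns (log2 change 1.36, SE 0.313, adjusted p = 0.0426), a call lost without biosample 1, 2, 4, 5, 6, 7 or 8 (adjusted p = 0.0783 to 0.147) and with edgeR. Eif5a, at 26.8 to 70.4 CPM in normal and 97 to 193 CPM in paclitaxel pulldowns (log2 change 1.55, SE 0.36, adjusted p = 0.0435), lost its call without biosample 1, 2, 4, 5, 7 or 8 (adjusted p = 0.0951 to 0.177). Eef1d was at 227 to 515 CPM in normal and 115 to 144 CPM in paclitaxel pulldowns (log2 change -1.53, SE 0.273, adjusted p = 0.0146), and the call was lost without biosample 1, 2, 5, 7 or 8 (adjusted p = 0.0575 to 0.118). Eif2b5 was at 398 to 559 CPM and 135 to 244 CPM (log2 change -1.33, SE 0.245, adjusted p = 0.016), and its call was lost without biosample 1, 2, 7 or 8 (adjusted p = 0.0532 to 0.118). Eif2b4 passed without biosample 3 (-1.38, adjusted p = 0.0273) and Eif3b without biosample 6 (-1.40, adjusted p = 0.0402). With the filter at 5 CPM, limma also called rises of Eif4a3 (2.32, adjusted p = 0.0234), Eif3g (1.56, adjusted p = 0.0407) and Eef2 (0.91, adjusted p = 0.0439). Falls of Eif2b4 (-1.16), Eif3b (-1.19) and Eif3m (-1.59) were called there too. Without biosample 1, 2, 7 or 8 no member passed. With edgeR 2 members rose, Eef1a1 and Eif5a, and 6 fell, Eef1d, Eif2b4 (-1.53), Eif2b5, Eif3b (-1.39), Eif3c (-1.09) and Eif3m (-1.77). At an unadjusted p under 0.05 edgeR gave 18 of the 56 members, against 15.6% of all genes. Its share of all genes at the adjusted threshold is not given here. The share of higher calls among all called genes was 73% on the CPM scale, 46.2% with median-ratio scaling, 58.7% with quantile normalization and 40.4% with edgeR. The summed general neuron markers differed between these pulldowns too, at 19105 to 40877 CPM in normal and 10984 to 18010.2 CPM in paclitaxel pulldowns. Of the 5 markers none passed in limma or was at 0. Their median log2 change was -0.72, with 2 of 5 changes above 0. Uchl1 was at 9169 to 29525 CPM in normal and 5133 to 10314 CPM in paclitaxel pulldowns, and Stmn2 at 1305 to 1554 and 1826 to 2277 CPM. The part of these markers in the members' differences was not tested.

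**Figure D5:**
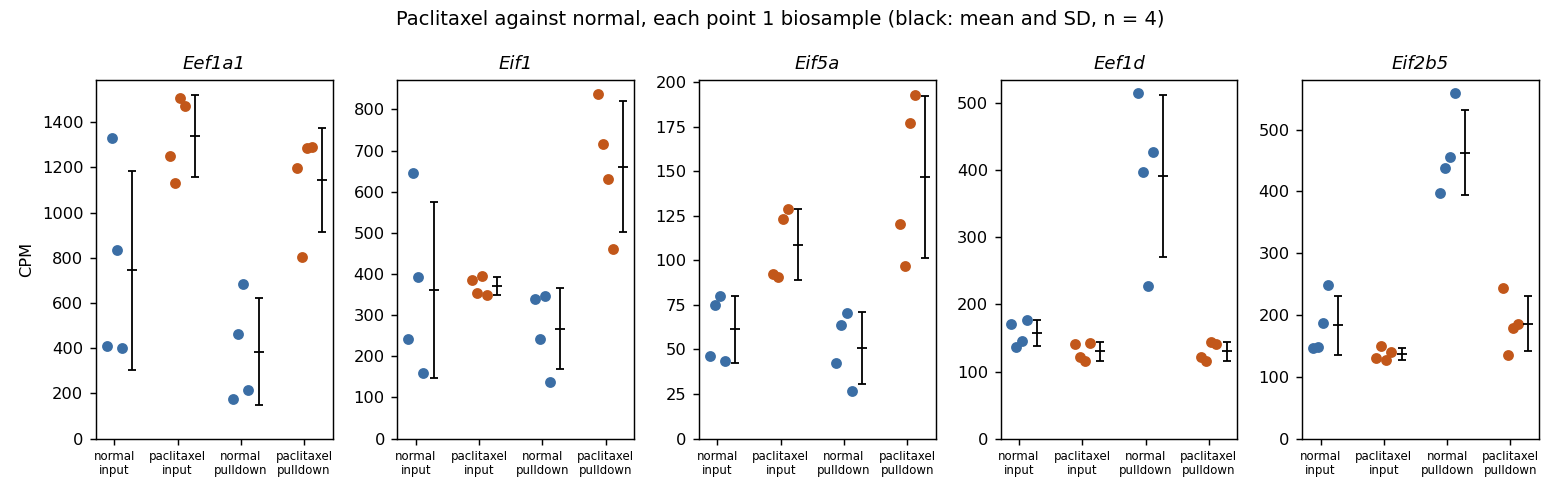
CPM (linear axes from 0) of the 5 members called between paclitaxel and normal pulldowns, with 1 point per biosample in each of the 4 groups and the mean and SD in black (n = 4). In pulldown the treatments do not overlap for any of the 5, and in input Eif5a alone does not overlap.

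In the inputs, which hold the RNA of the whole ganglion, 0 of 56 members passed between paclitaxel and normal mice by limma or by edgeR, where limma called 1.64% of all genes, 1.46% higher and 0.183% lower. At an unadjusted p under 0.05 limma gave 9 members and edgeR 10, where 19.1% and 17.8% of all genes met it. The median of the members was 0.14, the same as that of all genes. The groups did not overlap for 3 members that were higher with paclitaxel (Eif1b, Eif2ak1 and Eif5a, 5.36% against 8.16% of all genes) and for Eif3b, which was lower (1.79% against 3.14%). Eif4e3 had the lowest adjusted p, at 0.0679 (log2 change -1.02), and that of Eif5a was 0.0847 (log2 change 0.85). Input 2 was the highest normal input for Eef1a1, Eif1 and Eif3g. Without biosample 2, 5 members rose, Eef1a1 (1.36), Eif3f (0.90), Eif3g (1.29), Eif3l (1.59) and Eif5a (0.97), with adjusted p from 0.0189 to 0.0353. The share of all genes called in that fit is not given here, so this count has no background. Without biosample 4 or 6, Eif4e3 fell (-1.22 and -1.20, adjusted p = 0.0474 and 0.046). The general neuron markers summed to 11391 to 14148 CPM in normal and 6447 to 8583 CPM in paclitaxel inputs, where 1 of 5, Uchl1, fell, and none was at 0. Of their 5 log2 changes 1 lay above 0. The red cell markers summed to 822 to 1129 and 1563 to 3669.6 CPM, and 2 of 4 rose. Their part in the inputs was not tested.

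Of the 11 known TOP mRNAs among the members, 3 rose (27.3%) and 2 fell (18.2%) in normal pulldowns, against 5.09% and 24.7% of all genes (median 0.35). In paclitaxel pulldowns 3 rose (27.3%) and 1 fell (9.09%), against 4.92% and 23% (median 0.04). Between paclitaxel and normal pulldowns Eef1a1 rose and Eef1d fell (9.09% each, against 1.33% and 0.492%, median 0.41). Summed over the 56 members, the level was 7659.9 to 11144 CPM in normal inputs, 9867 to 11166 CPM in normal pulldowns, 10050.1 to 10583 CPM in paclitaxel inputs and 11281 to 12375 CPM in paclitaxel pulldowns. The members made up 0.766% to 1.24% of the reads of a library.

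Of 46 other genes of the pathway tested, 2 rose (4.35%) and 8 fell (17.4%) in normal pulldowns, against 5.09% and 24.7% of all genes. In paclitaxel pulldowns 0 rose and 6 fell (13%), against 4.92% and 23%. These shares are near or below the background. The RNA helicase Dhx29 (1.34) and the scaffold Eif4g1 (0.60) rose in the normal group. The scaffold Eif4g3 fell in both (-1.54 and -0.97), as did Ddx3x, a helicase (-1.52 and -0.69), and Ppp1r15b, a subunit that directs phosphatase to eIF2 alpha (-1.57 and -1.96). Between the treatments 1 of 46 passed in the pulldowns and 1 in the inputs (2.17% each, against 1.82% and 1.64% of all genes). With paclitaxel Larp1, which binds TOP mRNAs, fell in the pulldowns (-1.13, adjusted p = 0.0195). Tufm, the mitochondrial elongation factor Tu, rose in the inputs (1.48, adjusted p = 0.0335).

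Across the members the change from input to pulldown was set against transcript length and the GC content of the last 500 bases. Spearman's rho with length was -0.01 in normal and -0.42 in paclitaxel biosamples over the 56 members, and -0.14 and -0.22 over 14192 genes. With GC it was 0.20 and 0.51 over the members and 0.30 and 0.27 over all genes. For paclitaxel against normal pulldowns the members' rho was -0.41 with length and 0.29 with GC, and that of all genes -0.11 and 0.02. These correlations run across genes, which are not independent replicates. With each library's trend in length and GC removed, the normal call of Eif5 between fractions was lost (-0.30, adjusted p = 0.247). So were the paclitaxel calls of Eif1 (0.46), Eif3a (-0.15), Eif3h (0.30), Eif3i (0.50) and Eif5a2 (-0.74), with adjusted p from 0.0993 to 0.548. Called instead in normal biosamples were Eif1 (-0.57, adjusted p = 0.0389), Eif3j1 (0.66, adjusted p = 0.0437), Eif4a3 (-1.27, adjusted p = 0.0403) and Eif5a (-0.66, adjusted p = 0.039), and with paclitaxel Eif4ebp3 (-1.77, adjusted p = 0.0476). Between the pulldowns 8 members passed instead of 5.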

How the data were processed

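The libraries were 3′ end (QuantSeq) libraries. Per the submitters' processing notes, FastQC 0.11.5, TopHat2 2.1.1, Bowtie2 2.2.9, Cufflinks 2.2.1 and build GRCm38.p4 were used, with GENCODE vM10 genes per the file headers. Whether reads were counted by strand is not given in the sources used here. The deposited values, headed TPM, are CPM, since every column has the same sum and 98% to 99% of non-zero values are whole multiples of 1 read within 0.0051 CPM. The recovered whole reads, with those of the subsamples of biosample 7 summed, were used for edgeR. The authors' 2 merged columns were not used.

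The 14214 genes that reached 1 CPM in 4 or more of 16 libraries were tested as log2(CPM + 1) with limma 3.58.1 in R 4.3.3 (trend on, robust off, two-sided, Benjamini-Hochberg over all genes). Pulldown against input and its shift with paclitaxel were fitted together, with a fixed term for each biosample. The treatments were compared in separate fits of the 8 pulldowns and of the 8 inputs. Input and pulldown of 1 number came from 1 extract, per the labels' protocols, and their deviations from group means correlated at 0.0534 to 0.376 in the 8 biosamples. As alternatives, the pseudocount was set to 0.1 or 5 and the filter to none or 5 CPM, and the fits were repeated with median-ratio and quantile scaling, either subsample alone, edgeR 4.0.16 on whole reads (quasi-likelihood, TMM), without the block and without each biosample. Added after seeing the data were removal of length and GC trends (99.8% of genes had both) and leaving out biosamples 1, 2, 5 and 6, the 2 per treatment with the fewest genes at 1 CPM in pulldown. The fit was tested on simulated data, drawn with a common dispersion and with no differences between biosamples beyond library size. That simulation is simpler than these libraries, so it does not show how the fit performs on them. Gene coordinates came from GENCODE vM21 on GRCm38, and start windows from RefSeq on GRCm38.p6. The members, role groups and lists were chosen with earlier results of these data known. Values in every library are given for the members that passed with at least 5 CPM, up to 6 per comparison and direction, and for a fixed set of members. Values of Eif3b, Eif3c and Eef2kmt were added after they were seen.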

Additional observations from a re-analysis of the deposited data

Results flagged for a closer look

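In 156 groups of 4 libraries, 39 members in each of the 4 groups, a single library stood apart from the other 3 in 9 cases, where chance gives about 1 in 20 groups. The measure is the gap to the nearest library divided by the range of the group, both on the log2(CPM + 1) scale, set against Dixon's 95% limit for 4 values.

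In the normal pulldowns, biosample 2 was lowest for Eif2s1 (0.942, 11.1 CPM against 27.6 to 29.2) and for Eif3e (0.835, 10.3 CPM against 33.1 to 41.5). Biosample 3 was lowest for Eif4a3 (0.886, 3.15 CPM against 10.3 to 11.9) and highest for Eif4ebp3 (0.883, 3.41 CPM against 0 to 0.19). Biosample 4 was lowest for Eif2s3x (0.836, 6.7 CPM against 44.6 to 63.6) and for Eif3i (0.925, 38.9 CPM against 111 to 121), and highest for Eif3h (0.909, 609 CPM against 307 to 327).

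In the paclitaxel pulldowns, biosample 6 was lowest for Eef1a1 (0.843, 803 CPM against 1196 to 1289), and biosample 8 was lowest for Eif3a (0.853, 227 CPM against 291 to 304). On that log2 scale no input library stood apart for the 39 members. No member passed the test of a difference between the treatments in the change from input to pulldown.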

How the results depend on the processing

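Of 35 results on single members, 13 kept their direction and their side of the threshold in all settings run, and 22 lost the call in at least 1. The 13 were the normal rises of Eef1b2, Eef1d, Eef1g, Eif2b4, Eif2b5, Eif2s2, Eif3b, Eif3c, Eif3d, Eif3k and Eif3m and the paclitaxel rises of Eif3d and Eif3k. The fall of Eef2 in normal pulldowns turned to 0.04 with edgeR. The members' median change from input to pulldown moved from 0.04 to 0.46 (median-ratio scaling), 0.40 (quantile) and 0.58 (edgeR) in normal biosamples, and from 0.13 to 0.45, 0.39 and 0.51 with paclitaxel. Between paclitaxel and normal it moved from 0.06 to -0.17 (median-ratio) and -0.16 (edgeR) in pulldowns and from 0.14 to -0.06 (edgeR) in inputs. The cause of these moves beyond the scaling itself was not tested.

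Of the counts, the 12 members called with paclitaxel became 19 with median-ratio scaling, 5 without the replicate block, 5 without the biosamples with the fewest pulldown genes, and 6 to 15 with 1 biosample left out. The 5 called between the pulldowns became 8 (pseudocount 0.1), 2 (pseudocount 5), 0 (no filter, where 0 of all genes passed), 11 (filter of 5 CPM), 9 (quantile), 2 (subsample 1 alone), 8 (edgeR), 8 (length and GC trend removed), 0 (without the biosamples with the fewest pulldown genes) and 0 to 6 with 1 biosample left out. Left out in turn, the biosamples gave 0 to 2 calls for the shift and 0 to 5 for the inputs. Apart from the setting with no filter, the shares of all genes called under these settings are not given here. The changes in these counts are therefore not set against changes in calling over all genes. Input and pulldown are paired by biosample, and the biosample block is in the fits reported. With 4 biosamples per group and at most 13228 genes at 1 CPM in a pulldown, low members such as Eif3j2, Eif4ebp3 and Eef1akmt1 could show only large differences.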
